A study of Homo sapiens with 12 samples.

Results

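The genes described here are 9 that carry type I interferon sensing and signalling, out of 19919 genes in the count table. They were taken by symbol from a list of pathway members, not by a threshold on measured values. The list was chosen with earlier results of these data known, so counts of its members set against all genes are descriptions. The 9 are the RNA sensors IFIH1, DDX58 and DHX58, the receptor chains IFNAR1 and IFNAR2, the receptor kinase JAK1, the transcription factor subunits STAT2 and IRF9, and the interferon gene activator IRF7. All 9 passed the filter on low counts, IRF7 through its Raji libraries only.

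As background, a cell senses foreign or misplaced double-stranded RNA with cytoplasmic helicases, which signal through the mitochondrial adaptor MAVS to kinases that activate IRF3 and IRF7, and these switch on interferon genes. Secreted interferon binds a receptor made of IFNAR1 and IFNAR2, whose kinases TYK2 and JAK1 phosphorylate STAT factors, STAT2 among them. STAT2 and IRF9 are subunits of ISGF3, the complex that binds interferon-stimulated response elements and induces antiviral effector genes. The sensors, STAT2, IRF9 and IRF7 are themselves interferon-induced genes in many cell types, whereas the receptor chains and JAK1 are mostly expressed without it.

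RNA was measured as gene-level RNA-seq counts in 2 Burkitt lymphoma cell lines, Raji and Daudi, both established B cell lines that carry Epstein-Barr virus. Raji had 4 wild-type (WT) and 4 FBXO11 knockout (KO) libraries, and Daudi had 2 WT and 2 KO libraries. FBXO11 is the substrate-recognition subunit of an SCF ubiquitin ligase, and the study asked what its loss changes in these lines. Knockout cells received LentiCRISPR v2 with guides against exon 4, were selected with puromycin and were grown as clones from single cells, screened by western blot and sequencing of the target. No interferon or other stimulus is named for any group. The labels give each KO library a number of its own and each WT library a letter, and do not say whether these name clones. Which clone or guide each knockout library came from, and whether WT cells carried a vector, are otherwise not given in the sources used here. A difference between KO and WT therefore cannot be told apart from a difference between clones of the same line. Beyond these library names, nothing says that libraries of a group came from separate cultures. The p-values therefore rest on library-to-library spread that may be technical only. Replicate numbers below only name libraries.

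Libraries held 11164332 to 23557920 counts, and levels are given as CPM, counts divided by the TMM-scaled library total and multiplied by 1e6. FBXO11 itself passed the test in neither line. It was at 118, 68.6, 88 and 83 CPM in Raji WT and 72.1, 70.6, 34.1 and 47.9 CPM in Raji KO, and at 81.8 and 51.7 CPM in Daudi WT and 88.4 and 92.8 CPM in Daudi KO; gene-level counts do not read a small edit in exon 4. Raji WT libraries 3 and 4 were unusually alike, with a chi-square per degree of freedom of 2.18 against 21.9 to 171 in the other 13 pairs within a group, and were kept apart because they still differed by more than sampling noise. The 2 Daudi WT libraries were the least alike pair, at 171, and the calls that rest on it are given also without Daudi WT library 1. The B cell markers MS4A1, at 429 to 1340 CPM, and CD79A, at 320 to 610 CPM, were expressed in every library, as was the B cell transcription factor PAX5, at 146 to 344 CPM. The 6 B cell markers summed to 3050 to 3330 CPM in Raji WT and 2370 to 2900 CPM in Raji KO. In Daudi the sums were 2680 to 3350 CPM in WT and 2040 to 2300 CPM in KO. CD22 was at 799 to 1080 CPM in Raji WT and 504 to 728 CPM in Raji KO. In Daudi it was at 529 to 725 CPM in WT and 318 to 427 CPM in KO. CD79B overlapped in both lines, and PAX5 was higher in Daudi KO, at 212 to 220 against 186 to 207 CPM. MS4A1 was at 750 to 1340 CPM in Daudi WT and 429 to 518 CPM in Daudi KO and passed there as lower (log2 fold change -1.14, edgeR adjusted p = 0.0357). The 7 myeloid markers summed to 30.9 to 59.8 CPM in Daudi WT, 14.3 to 21.3 CPM in Daudi KO and 1.01 to 7.94 CPM in Raji. Of these, CSF1R was at 23.6 to 25.6 CPM in Daudi WT and 6.39 to 12.7 CPM in Daudi KO, and CD68 at 1.28 to 27.7 and 0.236 to 0.513 CPM, whereas LYZ, at 2.9 to 4.35 and 4.2 to 5.01 CPM, and ITGAM, at 1.53 to 3.57 and 2.05 to 4.09 CPM, overlapped. The 8 epithelial and fibroblast markers summed to 16.1 to 34.5 CPM in Raji WT, 5.45 to 20 CPM in Raji KO and at most 2.24 CPM in Daudi. Nearly all of the Raji sums was COL1A1, at 15.7 to 34.1 CPM in WT and 5.07 to 19.9 CPM in KO. COL1A2, COL3A1 and DCN had 0 counts in Raji. CD14, FCGR3A and MPO were at or near 0 in every library, and the part of these markers in the results was not tested. In bulk RNA, fewer cells with a transcript and less of it per cell cannot be told apart.

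The promoters of the members that moved in Daudi are shown first, because interferon response elements are defined by their letters. RefSeq windows (GRCh38.p14, from 250 bases before to 50 bases after the start) were found for 6 of the 9 members; DHX58, IFNAR2 and IRF7 had none in the table. Then 3 letter patterns were searched on both strands. The interferon-stimulated response element core GAAANNGAAA, or TTTCNNTTTC on the other strand, occurs in 3.57% of 35116 RefSeq promoter windows. The variant GAAANGAAA, or TTTCNTTTC, occurs in 3.12%. The gamma-activated site TTCNNNGAA, bound by STAT dimers and the same on both strands, occurs in 7.66%. Capitals mark the matches in the sequences below, each written 5′ to 3′ on the strand of the gene.
IFIH1: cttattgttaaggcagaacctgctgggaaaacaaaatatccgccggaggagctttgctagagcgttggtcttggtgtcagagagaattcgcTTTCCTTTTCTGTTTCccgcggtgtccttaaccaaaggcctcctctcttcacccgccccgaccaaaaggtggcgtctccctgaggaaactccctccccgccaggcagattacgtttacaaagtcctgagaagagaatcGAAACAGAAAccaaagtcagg
DDX58: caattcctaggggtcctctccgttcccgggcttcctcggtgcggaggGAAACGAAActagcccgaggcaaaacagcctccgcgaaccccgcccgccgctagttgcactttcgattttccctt
IRF9: accacgtgatTTCTGGGAAaaggccctccc
The IFIH1 sequence, chr2:162318685-162318934 on the minus strand, ends at the base before the RefSeq start, and its last 19 bases lie in the first exon of GENCODE's gene model. It holds 3 matches to the 2-base-spacer element, at -159, -153 and -21 from the start, of which TTTCCTTTTC and TTTCTGTTTC overlap each other and GAAACAGAAA stands alone. The DDX58 stretch, chr9:32526325-32526446 on the minus strand, holds 1 match to the 1-base-spacer element, GAAACGAAA at -203. The IRF9 stretch, chr14:24161192-24161221 on the plus strand, holds 1 gamma-activated site, TTCTGGGAA at -63. GENCODE's IRF9 gene starts 212 bases before the RefSeq start, so this stretch lies inside that gene model. No match to any of the patterns lay in the windows of STAT2, IFNAR1 or JAK1. A match is a description of letters and not a bound site.

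Across the pathway, the knockout differed from wild type at the sensors and the ISGF3 subunits of Daudi. Of the 9 genes, 5 fell in Daudi KO by edgeR's quasi-likelihood test (Benjamini-Hochberg adjusted p under 0.05), against 1.82% of 12027 tested genes that fell and 2.62% that changed in either direction. These were IFIH1, DDX58, DHX58, STAT2 and IRF9; IFNAR1, IFNAR2, JAK1 and IRF7 did not pass. None of the 5 passed when the 4 Daudi libraries were fitted alone, with adjusted p from 0.0728 for IFIH1 to 0.265 for STAT2, so the calls use the spread shared with Raji. In Raji KO none of the 9 passed, against 2.6% of tested genes in either direction, 0.923% higher and 1.68% lower. At an unadjusted p under 0.05 the Raji count was 3, against 15.8% of tested genes. By other tools it was 1 with DESeq2, against 6.81% of its tested genes, and 3 with limma-voom, near the 29.3% of all genes that this tool passed. The plot of levels by library shows where the groups separate.

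**Figure D1:**
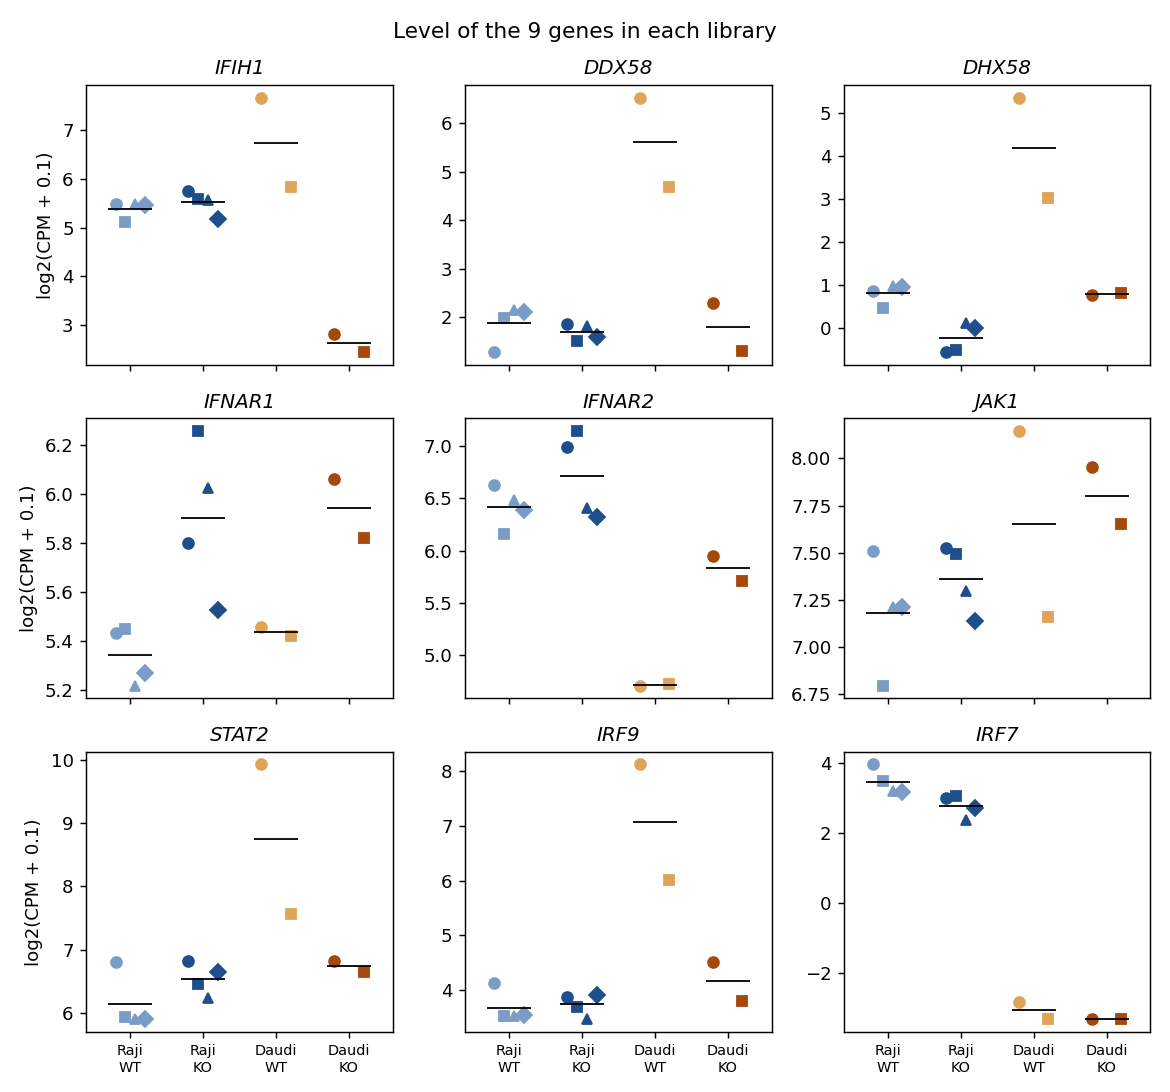
Level of each gene in each library, as log2(CPM + 0.1), in Raji and Daudi wild type (WT) and FBXO11 knockout (KO). Each point is 1 library, marker shape gives its number within the group, the line is the mean of the points, and the vertical scale differs between panels. IFIH1, DDX58, DHX58, STAT2 and IRF9 are highest in the 2 Daudi WT libraries, whereas IRF7 is at or near 0 counts in all 4 Daudi libraries.

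Among the 9 genes, the RNA sensors were those with the largest falls in Daudi KO. IFIH1 encodes MDA5, the sensor of long double-stranded RNA (chromosome 2, 162267079 to 162318703, minus strand, GRCh38). It was at 204 and 56.7 CPM in Daudi WT and at 6.94 and 5.34 CPM in Daudi KO. Both knockout libraries were low, and the lower WT library was 8.17 times the higher KO library. The log2 fold change was -4.41 (SE 0.49, 21.2-fold lower, edgeR adjusted p = 0.00145), and without Daudi WT library 1 it was -3.21 (adjusted p = 0.000317). In Raji IFIH1 was at 45.1, 34.6, 44.6 and 44.2 CPM in WT and 53.6, 48, 47.4 and 36.2 CPM in KO. These groups overlapped, with a log2 fold change of 0.14 (95% interval -0.52 to 0.80). IFIH1 levels therefore stood in the order Daudi WT, Raji KO, Raji WT, Daudi KO, and only the Raji groups overlapped.

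DDX58 encodes RIG-I, the sensor of short RNA with a 5′ triphosphate (chromosome 9, 32455705 to 32526324, minus strand). Its level was 92.2 and 25.8 CPM in Daudi WT and 4.81 and 2.36 CPM in Daudi KO. The log2 fold change was -4.04 (SE 0.56, 16.4-fold lower, edgeR adjusted p = 0.00411), and -2.85 without Daudi WT library 1 (adjusted p = 0.0248). The call was lost without Daudi KO library 2 (adjusted p = 0.0697). Raji held little DDX58 in either genotype, with 2.33, 3.85, 4.37 and 4.21 CPM in WT and 3.52, 2.77, 3.44 and 2.94 CPM in KO, a log2 difference of -0.22 (95% interval -1.05 to 0.61). The Daudi KO libraries overlapped both Raji groups in level.

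DHX58 encodes LGP2, a helicase without signalling domains that modulates the other two sensors (chromosome 17, 42101404 to 42112733, minus strand). It was at 40.6 and 7.95 CPM in Daudi WT and 1.62 and 1.65 CPM in Daudi KO. The log2 fold change was -3.89 (SE 0.63, 14.8-fold lower, edgeR adjusted p = 0.00797). Leaving out Daudi WT library 1 ended the call (log2 fold change -2.28, adjusted p = 0.0689), as did leaving out either KO library (adjusted p = 0.0806 and 0.129). DHX58 was also the sensor with the largest difference in Raji, at 1.73, 1.28, 1.86 and 1.83 CPM in WT and 0.58, 0.609, 0.982 and 0.908 CPM in KO. All 4 KO libraries lay below all 4 WT libraries, but on 55 counts in total in KO the log2 difference of -1.13 (SE 0.46) did not pass (adjusted p = 0.25); without Daudi WT library 2, which changes the shared spread, it was -1.13 with an adjusted p of 0.0418.

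The receptor chains showed no fall in either line. IFNAR1, the chain that binds TYK2, lies on chromosome 21 (33324477 to 33359862, plus strand). In Raji it was at 43.1, 43.5, 37.1 and 38.4 CPM in WT and 55.5, 76.3, 64.9 and 46 CPM in KO, with no overlap. The log2 difference of 0.58 (SE 0.15, 95% interval 0.25 to 0.92) had an edgeR adjusted p of 0.073. It passed with DESeq2 (0.56, adjusted p = 0.0147), with limma-voom (0.73, adjusted p = 0.000653) and without Raji KO library 4 (0.69, adjusted p = 0.0226). In Daudi IFNAR1 was at 43.8 and 42.7 CPM in WT and 66.7 and 56.4 CPM in KO. The groups did not overlap, and the log2 difference was 0.51 (95% interval 0.04 to 0.98, adjusted p = 0.298). Across all 12 libraries both KO groups lay above both WT groups, and the lines did not differ within a genotype beyond their spread.

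IFNAR2, the chain that binds JAK1, lies beside it on chromosome 21 (33229901 to 33265675, plus strand). Of its exonic bases, 83.25% are shared with other annotated genes, AP000295.1 on the same strand and the antisense gene IL10RB-DT. Neither of these genes is in the deposited counts, and whether reads could be assigned to them is not known. The library kit does not mark strand, so IFNAR2 counts are uncertain. In Daudi its level was 26.1 and 26.3 CPM in WT and 61.7 and 52.4 CPM in KO. The log2 difference was 1.12 (SE 0.27, 95% interval 0.53 to 1.71), at an edgeR adjusted p of 0.0515, and it passed in 4 of 21 alternative settings. In Raji IFNAR2 was at 98.4, 71.1, 89.4 and 83.6 CPM in WT and 127, 141, 84.5 and 79.6 CPM in KO, a log2 difference of 0.34 (95% interval -0.08 to 0.75). KO libraries 1 and 2 were high, whereas KO libraries 3 and 4 lay inside the WT range.

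Both receptor genes sit on the chromosome with the highest median in the Daudi comparison. The 118 tested genes of chromosome 21 other than these 2 had a median log2 fold change of 0.38 in Daudi KO, with 75.4% above 0, against a median of 0 over all genes. Within 1 Mb the medians were 0.54 around IFNAR1, over 18 genes, and 0.52 around IFNAR2, over 19 genes. IFNAR1 exceeded its chromosome's median by 0.13 and IFNAR2 by 0.74. In Raji the chromosome 21 median was 0. The part of this chromosome-wide difference in the IFNAR1 and IFNAR2 values was not tested. Chromosome 2 was next in Daudi, with a median of 0.33, and IFIH1 on it moved the opposite way. Chromosome 14 had a Daudi median of -0.2, with 28.6% of genes above 0, and IRF9 on it moved the same way. The chromosomes of DDX58, DHX58 and STAT2 had Daudi medians of -0.03, 0.04 and 0.02.

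**Figure D2:**
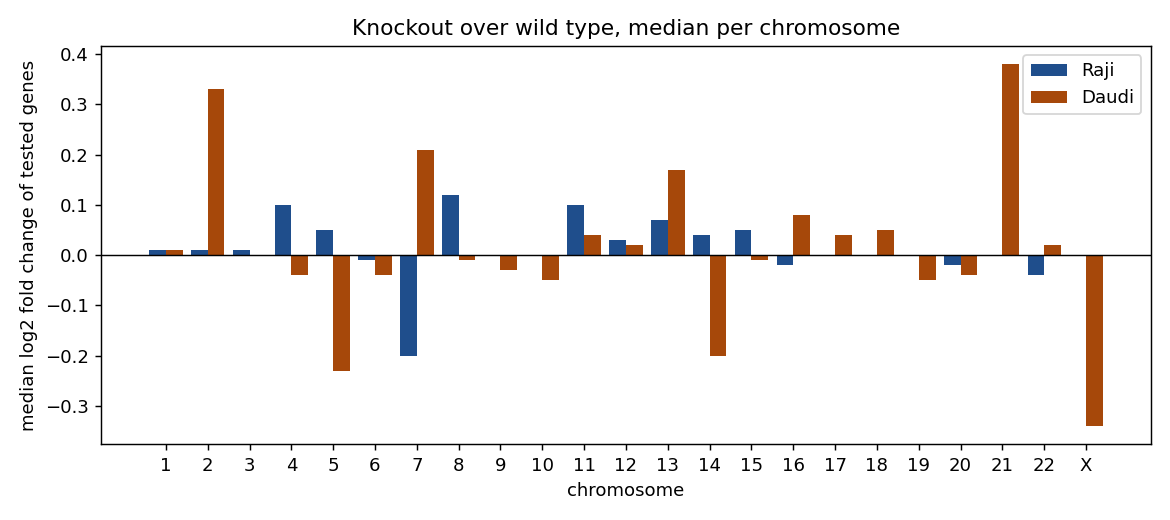
Median log2 fold change, knockout over wild type, of the tested genes on each chromosome in Raji and Daudi. Each bar is 1 chromosome in 1 line; the tallest bar is chromosome 21 in Daudi, at 0.38, where Raji is at 0.

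JAK1, the tyrosine kinase on IFNAR2, was among the most abundant members and overlapped between genotypes in both lines (chromosome 1, 64833229 to 64966504, minus strand). It was at 182, 111, 148 and 148 CPM in Raji WT and 184, 180, 157 and 141 CPM in Raji KO. In Daudi it was at 283 and 143 CPM in WT and 248 and 201 CPM in KO. The log2 differences were 0.17 (95% interval -0.29 to 0.63) and 0.07 (95% interval -0.58 to 0.73). These intervals leave room for a change of either sign in both lines.

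The ISGF3 subunits fell in Daudi KO, STAT2 by a call that depended on the settings. STAT2 is the subunit that carries the activation domain (chromosome 12, 56341597 to 56360155, minus strand). It was at 975 and 189 CPM in Daudi WT and at 113 and 100 CPM in Daudi KO. WT library 1 stood far above the other 3, and WT library 2 was 1.67 times the higher KO library. The log2 fold change was -2.45 (SE 0.58, 5.46-fold lower, edgeR adjusted p = 0.0482). It passed in 5 of 21 alternative settings, 2 of them among the 12 that left out a single library, with adjusted p from 0.00048 to 0.519, and without Daudi WT library 1 it was -0.82 (adjusted p = 0.519). In Raji STAT2 was at 112, 60.9, 59.6 and 59.7 CPM in WT and 113, 87.4, 74.8 and 100 CPM in KO, a log2 difference of 0.37 (95% interval -0.49 to 1.22). WT library 1 was high and reached the KO range, and the other 3 WT libraries lay below every KO library.

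IRF9 is the DNA-binding subunit of ISGF3 (chromosome 14, 24161053 to 24166565, plus strand). AL136295.5, on the same strand and absent from the deposited counts, shares 48.44% of its exonic bases, so some IRF9 counts are uncertain. IRF9 was at 279 and 64.9 CPM in Daudi WT and 22.9 and 13.9 CPM in Daudi KO. The log2 fold change was -3.23 (SE 0.54, 9.36-fold lower, edgeR adjusted p = 0.00951), and -1.82 without Daudi WT library 1 (adjusted p = 0.0406). Leaving out KO library 1 or 2 ended the call (adjusted p = 0.054 and 0.157). In Raji IRF9 was at 17.4, 11.4, 11.4 and 11.6 CPM in WT and 14.6, 12.9, 11 and 14.9 CPM in KO, a log2 difference of 0.05 (95% interval -0.75 to 0.84). The Raji groups overlapped each other and the Daudi KO libraries.

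IRF7, the factor that amplifies interferon gene transcription, separated the lines and not the Daudi genotypes (chromosome 11, 612553 to 615999, minus strand). It was at 15.3, 11, 8.96 and 8.82 CPM in Raji WT and 7.85, 8.12, 5.03 and 6.36 CPM in Raji KO. Every Raji KO library lay below every WT library, and the log2 difference of -0.69 (SE 0.28, 95% interval -1.31 to -0.06) did not pass (edgeR adjusted p = 0.26). Daudi WT held 1 count in all and Daudi KO 0, so no knockout fold is given there. In Daudi KO, 3 counts over the group would be 0.0651 CPM, the limit that a count of 0 allows. The 699 counts in Raji WT against 1 in Daudi WT gave a ratio of 409 after scaling by library size (95% interval 73 to 16195, counting error only), and Raji KO was at least 102-fold higher than Daudi KO against a floor of 3 counts over the group.

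**Figure D3:**
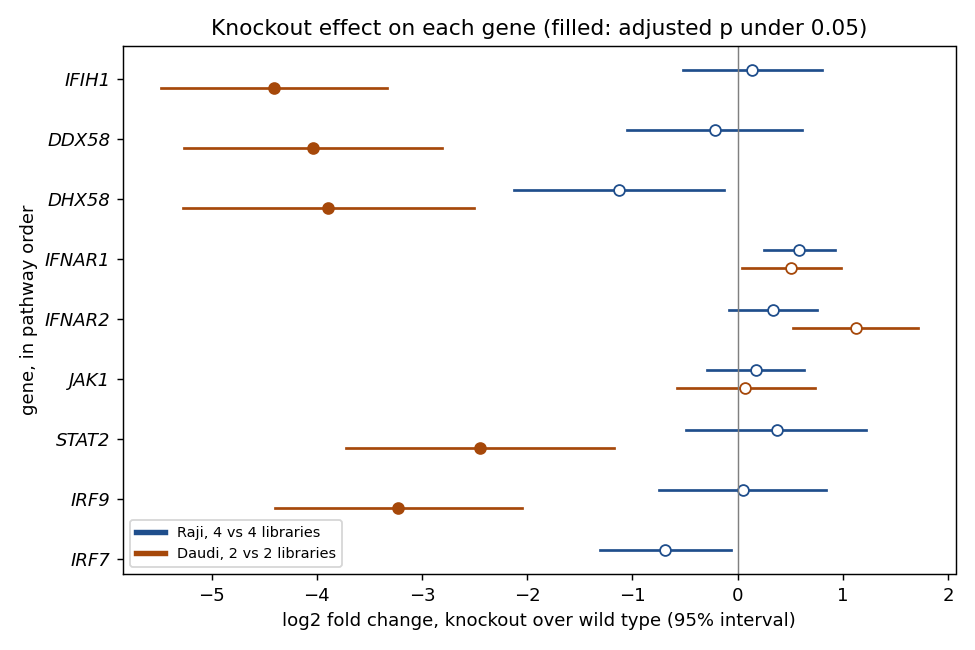
Log2 fold change, knockout over wild type, of each gene in Raji (4 against 4 libraries) and Daudi (2 against 2), with 95% intervals. Filled points passed an adjusted p under 0.05; the 5 filled points are all in Daudi, from -2.45 for STAT2 to -4.41 for IFIH1, and IRF7 has no Daudi point because it was at the floor there.

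The difference between the knockout effects of the lines was tested directly, and 3 of the 9 genes passed, against 0.773% of tested genes in either direction, 0.474% with a positive and 0.299% with a negative difference. IFIH1 differed by 4.54 log2 units, Raji minus Daudi (SE 0.56, edgeR adjusted p = 0.00545). DDX58 differed by 3.82 (SE 0.65, adjusted p = 0.0254) and IRF9 by 3.27 (SE 0.63, adjusted p = 0.0383). STAT2, at 2.81 (SE 0.69, adjusted p = 0.0942), and DHX58, at 2.76 (SE 0.75, adjusted p = 0.127), did not pass. IFNAR2, at -0.78 (95% interval -1.50 to -0.07, adjusted p = 0.325), IFNAR1, at 0.07, and JAK1, at 0.09, did not pass either. Without Daudi WT library 1 only IFIH1 passed, and without Daudi KO library 2 none did (IFIH1 4.36, adjusted p = 0.0595). Leaving out Raji WT library 3, Raji WT library 4 or Daudi KO library 1 also left only IFIH1. The IRF9 difference was lost on leaving out any library other than Raji WT library 1 or Daudi WT library 2, with a range of 1.87 to 3.97.

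Before any knockout, the lines already differed at most of these steps. In WT cells 7 of the 9 genes passed between Raji and Daudi, against 45.1% of tested genes, of which 20.3% were higher in Raji and 24.8% lower. DDX58 was 16-fold lower in Raji WT (log2 -4, SE 0.43), DHX58 14.4-fold lower (-3.84, SE 0.49) and IRF9 13.3-fold lower (-3.73, SE 0.43). STAT2 was 7.98-fold lower (-3, SE 0.46), and IFIH1 was 3.1-fold lower (-1.63, SE 0.35). Without Daudi WT library 1 these differences were smaller, at -2.80 for DDX58, -2.24 for DHX58, -2.33 for IRF9 and -1.37 for STAT2, and IFIH1 no longer passed (-0.43, edgeR adjusted p = 0.179). IFNAR2, 3.26-fold higher in Raji (1.71, SE 0.25), went the other way, as did IRF7. The low-count filter admitted IRF7 through its Raji libraries only, so a higher level in Raji was built into its selection. Its call is part of the 7 and is not a test. IFNAR1 (-0.09, 95% interval -0.50 to 0.31) and JAK1 (-0.53, 95% interval -1.09 to 0.03) did not pass.

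Between the knockouts 3 of the 9 passed, a share near the 42.2% of all tested genes (19.7% higher in Raji and 22.5% lower). IFIH1 was 7.53-fold higher in Raji KO (log2 2.91, SE 0.44). IFNAR2 was 1.9-fold higher (0.92, SE 0.24), and without Daudi KO library 2 it was at 0.81 (edgeR adjusted p = 0.0887). IRF7 was higher as given above, again with the filter passed through Raji only. DDX58 (-0.17, 95% interval -1.17 to 0.82), STAT2 (-0.18, -1.22 to 0.86) and IRF9 (-0.46, -1.40 to 0.48), which had differed between the WT lines, did not pass here. DHX58 had also differed there. Between the knockouts it was at -1.08 (95% interval -2.23 to 0.07, edgeR adjusted p = 0.119), with groups that did not overlap, and it passed without Daudi WT library 1 or 2 (adjusted p = 0.0309 and 0.0128). These comparisons share libraries with the knockout comparisons and are not independent of them.

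Among the members, the 2 Daudi WT libraries differed most at those that fell in the knockout. Library 1 exceeded library 2 by 3.6 times for IFIH1, 3.57 for DDX58, 5.1 for DHX58, 5.17 for STAT2 and 4.3 for IRF9. A higher ratio was found in 1.16% to 3% of tested genes. For JAK1 the ratio was 1.98, for IFNAR1 1.03 and for IFNAR2 0.992. Both WT libraries nonetheless lay above both KO libraries for all 5 genes. Over all 9 members, 7 had Daudi groups that did not overlap, against 39.7% of tested genes; in Raji these were 3 of 9, against 11.8%.

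Per kilobase of exon, which allows levels of different genes to be compared, the order of the members changed between groups. In Raji WT the highest were JAK1 at 23.3 ± 4.6 CPM per kilobase (SD, n = 4), IFNAR2 at 18.6 ± 2.47 and STAT2 at 11.9 ± 4.22, and the lowest were DDX58 at 0.848 ± 0.215 and DHX58 at 0.436 ± 0.0694. In Daudi WT STAT2, at 95.2 ± 91 (SD, n = 2), and IRF9, at 45.4 ± 40, stood first, with errors as large as their levels, ahead of JAK1 at 33.7 ± 15.6. In Daudi KO JAK1 led at 35.5 ± 5.28, followed by STAT2 at 17.4 ± 1.5 and IFNAR2 at 12.4 ± 1.42. The sensors there stood at 1.2 ± 0.221 for IFIH1, 0.823 ± 0.398 for DDX58 and 0.425 ± 0.00616 for DHX58.

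The same steps were then followed in the other genes of the pathway, taken by their known roles. Between sensor and interferon gene, none of 12 adaptors and kinases (MAVS, TBK1 and IKBKE among them) passed in either line. Over all tested genes, 2.62% passed in Daudi and 2.6% in Raji, in either direction. The list's median log2 fold change was -0.29 in Daudi and 0.18 in Raji, against 0 and 0.01 over all genes. The smallest p belonged to TRADD in Daudi (-0.75, edgeR adjusted p = 0.091) and TRAF6 in Raji (0.44, adjusted p = 0.287). A list of RNA and DNA sensors outside the 3 helicases also held enzymes that act on nucleic acids. Of its 11 tested genes, 4 fell in Daudi, against 1.82% of all tested genes. None passed in Raji, against 2.6% in either direction. The Z-nucleic acid sensor ZBP1 fell from 88.1 and 14.9 CPM to 0.986 and 0.589 (-6.02, SE 0.98, adjusted p = 0.0165). In Raji ZBP1 had 10 counts in WT and 0 in KO, so it passed the low-count filter through Daudi only. The RNA-dependent kinase EIF2AK2 fell by 2.38 on the log2 scale and the exonuclease TREX1 by 2.12, as did the RNA-editing enzyme ADAR, by 1.34, which is named here after its value was seen. Without Daudi WT library 1, or without Daudi KO library 2, none of these 11 passed, and without KO library 1 only 1 did.

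Interferon transcripts themselves were few. Of 21 interferon ligand genes, 14 had no count in any library and only IFNB1, the gene of interferon beta, passed the filter. IFNB1 had 62 and 15 counts in the Daudi WT libraries, 3 and 2 in Daudi KO, and 1 in all 8 Raji libraries. It passed through the Daudi WT libraries only, so a fall in Daudi KO was built into its selection. The log2 fold change in Daudi was -3.99 (95% interval -6.25 to -1.74), at an edgeR adjusted p of 0.0806, and -2.83 without Daudi WT library 1 (adjusted p = 0.495). The interferon lambda genes IFNL1, IFNL2 and IFNL3 had 10, 11 and 21 counts in Daudi WT library 1, 0, 1 and 2 in library 2, and 1, 0 and 0 in both Daudi KO libraries together; IFNL2 and IFNL3 are near-identical copies whose counts are uncertain.

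Beyond the ligands, the other receptor chains did not pass in either line (0 of 4). Over all tested genes, 2.62% passed in Daudi and 2.6% in Raji, in either direction. IFNGR1, a chain of the interferon gamma receptor, had the smallest p in both, at -0.71 in Raji (edgeR adjusted p = 0.0549) and -0.50 in Daudi (adjusted p = 0.395). JAK2, a kinase of the interferon gamma receptor, did not pass in Raji (-1.05, adjusted p = 0.074). Of 7 other interferon regulatory factors, 1 fell in Daudi, against 1.82% of tested genes. It was IRF1, which went from 149 and 51.6 CPM to 24.1 and 22.4 (-2.11, SE 0.44, edgeR adjusted p = 0.0279). The list's median was also -2.11. In Raji none of the 7 passed, against 2.6% of tested genes in either direction, and IRF2 was at -0.70 (adjusted p = 0.283). The IRF1 call was lost without Raji WT library 4, Daudi WT library 1 or either Daudi KO library.

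At the output of the pathway, 25 of 32 tested interferon-stimulated effectors fell in Daudi KO, against 1.82% of all tested genes, with a list median of -4.85. IFI27 went from 906 and 713 CPM to 4.02 and 0.982 (-8.33, SE 0.62, edgeR adjusted p = 7.19e-05). The antiviral gene OASL went from 176 and 30.2 CPM to 0.513 and 0.118 (-8.32, SE 0.92), and the pro-apoptotic gene XAF1 from 355 and 99.6 CPM to 1.14 and 0.432 (-8.16, SE 0.80). Without Daudi WT library 1 the values were -8.15 for IFI27, -6.55 for OASL and -6.97 for XAF1, and all 3 passed. The median effector stood at 344 and 113 CPM in Daudi WT and at 6.03 and 1.75 CPM in Daudi KO. In Raji it was at 0.388 to 0.956 CPM in WT and 0.0892 to 0.454 CPM in KO. There 0 of 32 passed, against 2.6% of all tested genes in either direction, with a median difference of -0.83. Some of the 32 passed the low-count filter through Daudi only, so a call in Raji was hardly possible for them. Where the Daudi WT libraries alone carried a gene past the filter, a fall in Daudi KO was built into its selection. MX1, with 42 counts in Daudi WT and 0 in Daudi KO, is such a gene. The Daudi count and median include such genes and are not a test of the list. IFIT1, MX1 and CMPK2 had 0 counts in both Raji groups, and IFI27 had 5 in WT and 3 in KO. The smallest p in Raji was that of IFIT3, at 3.7, 1.56, 2.4 and 2.61 CPM in WT and 0.0446, 0, 0.552 and 0.534 CPM in KO (-3.20, adjusted p = 0.0626); DESeq2 called 4 of these effectors in Raji and limma-voom 13, where over all genes they called 6.81% and 29.3%. The Daudi count was 15 without Daudi WT library 1 and 11 without Daudi KO library 2. These genes were chosen with results of these data known, so the count is a description.

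Of 18 tested genes in the list of negative regulators of sensing and signalling, none passed in Daudi and 1 fell in Raji. Over all tested genes, 2.62% passed in Daudi in either direction and 1.68% fell in Raji. TREX1 and ADAR were counted with the sensors above and not in this list. The gene that fell in Raji was PTPN6, the phosphatase SHP-1, which went from 87, 159, 196 and 191 CPM to 17.3, 27.9, 34.8 and 28.7 CPM (-2.54, SE 0.27, edgeR adjusted p = 0.001). SOCS1, the interferon-induced inhibitor of JAK kinases, had the smallest p in Daudi, at 39.3 and 14.2 CPM in WT and 7.81 and 2.59 CPM in KO (-2.36, adjusted p = 0.0581). None of these lists contained a gene that passed in the higher direction in either knockout comparison. Over all tested genes, 0.798% did so in Daudi and 0.923% in Raji.

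**Figure D4:**
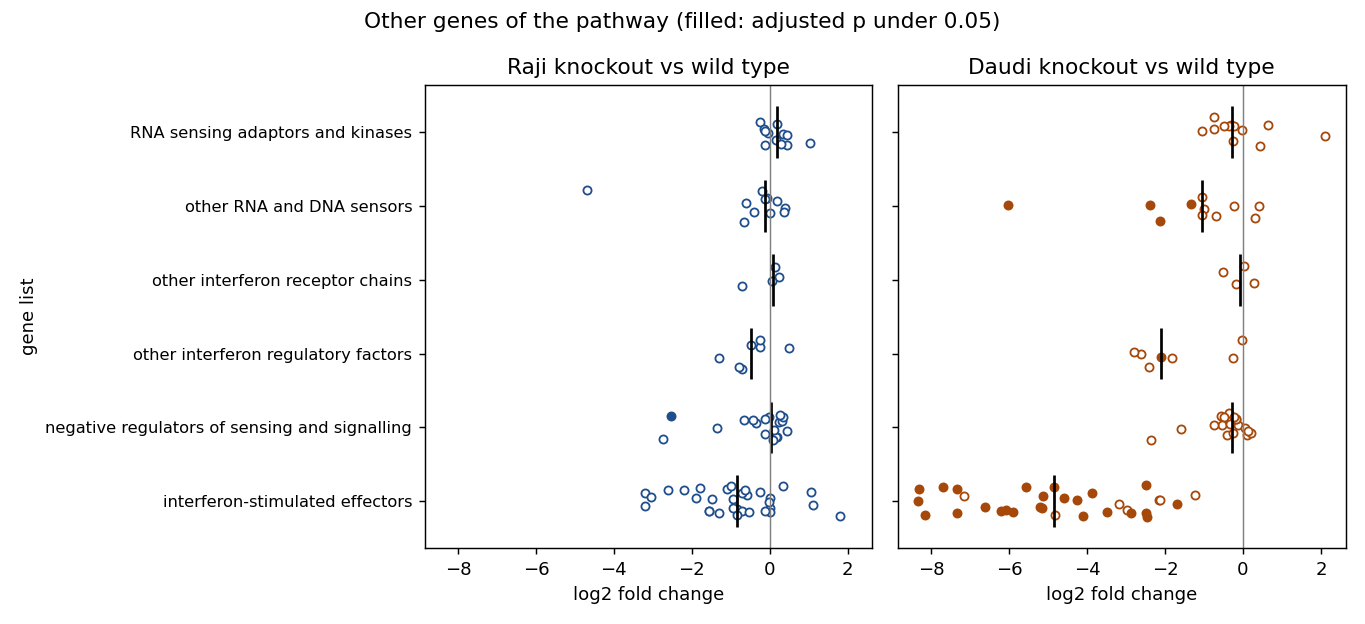
Log2 fold change, knockout over wild type, of every tested gene in 6 lists of other pathway genes, in Raji and Daudi. Each point is 1 gene, filled where the adjusted p was under 0.05, the bar is the list's median, and IRF3 is in 2 lists. Filled points in Daudi are in the list of other sensors (4, TREX1 and ADAR among them), the regulatory factors (IRF1) and the effectors (25). The only filled point in Raji is PTPN6.

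The genes whose log2 CPM followed each member most closely over the 12 libraries were also listed, as a description. They were RNF213 (Pearson r = 0.959) and ECE1 (0.953) for IFIH1, INPP1 (0.986) and SDK2 (0.981) for DDX58, and TAP1 (0.982) and GCH1 (0.975) for DHX58. For STAT2 they were MAX (0.972) and RUBCN (0.969), and for IRF9 CALD1 (0.986) and RBM43 (0.983). IFNAR1 was followed by PTP4A2 (0.934) and LAMP2 (0.905), IFNAR2 by SOX4 (0.964) and CHRNB2 (0.957), JAK1 by OTUD1 (0.954) and EDEM1 (0.933), and IRF7 by SPRED1 (0.997) and TES (0.996). Among the 5 members that fell in Daudi, the 10 pairwise r values ran from 0.46 to 0.97. All these values rest on the same 12 libraries in 4 groups, so a gene that separates the groups alike reaches a high r.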

How the data were processed

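RNA-seq of 12 libraries was deposited by the authors as 1 table of raw counts per gene for 19919 genes, whole numbers with no normalization. Per the submitters' processing notes, STAR 2.5.0, RSEM 1.3.0 and the hg38 (GRCh38) build were used; how RSEM estimates became whole counts is not stated there. Per the labels' protocols, libraries came from TruSeq RNA v2, which does not mark strand. Groups followed the labels. Counts were filtered (filterByExpr, minimum count 10), leaving 12027 genes, scaled by TMM and fitted in all 4 groups together (edgeR 4.0.16 in R 4.3.3, robust quasi-likelihood test, 8 residual degrees of freedom between libraries, biological coefficient of variation 26.1%), with Benjamini-Hochberg adjustment over all tested genes. The 95% intervals come from this fit. Scripts were tested on simulated data. DESeq2 1.42.0, limma 3.58.1, other scalings and filters, summed libraries and leaving out each library were tried. The fit over all 4 groups lets Daudi, with 2 libraries a group, borrow spread from Raji. Exon lengths, positions and overlaps came from GENCODE 29 and promoters from RefSeq. Named genes were the 9 members, FBXO11, up to 3 genes per list with the largest fold among those passing or else the smallest p, and the 2 likest genes per member. The members, lists and rules were chosen with earlier results of these data known. Some named genes are not reported here.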

Additional observations from a re-analysis of the deposited data

Results flagged for a closer look

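Among the 18 sets of 4 Raji libraries, 3 held a library far from the others by Dixon's criterion. It marks about 1 set in 20 by chance when the 4 values are independent. Raji WT libraries 3 and 4 were unusually alike and the 18 sets reuse the same libraries, so that rate need not hold here. In Raji WT, library 2 was lowest for IFIH1, at 34.6 CPM with the next at 44.2. Library 1 of Raji WT was highest for STAT2, at 112 CPM with the next at 60.9, and for IRF9, at 17.4 CPM with the next at 11.6. The same library was 1.39 times the next highest for IRF7 and lowest for DDX58, at 2.33 CPM.

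The knockout effects of the lines differed, Raji minus Daudi, by 4.54 log2 units for IFIH1, 3.82 for DDX58 and 3.27 for IRF9, each past an adjusted p of 0.05 in edgeR's quasi-likelihood test of the difference. The parts played in these differences by the Daudi WT libraries' spread and by the clones used were not tested.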

How the results depend on the processing

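Of 853 recomputed member values, 769 kept their direction and their side of the threshold, 48 lost a call, 19 gained one and 17 changed sign. In Raji the number of members passing, 0, was 1 with DESeq2 (IFNAR1 higher), 3 with limma-voom (IFNAR1, IFNAR2 and STAT2 higher) and 0 to 1 when leaving out each library. In Daudi the number, 5, was 0 when only the Daudi libraries were fitted (IFIH1 -4.36, adjusted p = 0.0728) and 1 to 5 when leaving out each library: 3 without WT library 1, 2 without KO library 1 and 1 without KO library 2. For the difference of effects the number, 3, was 5 with DESeq2, 1 with Raji WT libraries 3 and 4 summed, 1 with Raji KO libraries summed in pairs, and 0 to 5 when leaving out each library; it needs all 4 groups and has no value from fewer. IFIH1 passed in Daudi in 20 of 21 alternatives, DDX58 in 19, IRF9 in 18, DHX58 in 17 and STAT2 in 5.

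Signs changed only for values that did not pass. IRF9 in Raji was -0.02 with WT libraries 3 and 4 summed, and -0.02 to 0.23 when leaving out each library. Over the same omissions, JAK1 in Daudi ran from -0.33 to 0.65, the differences of effects from -0.05 to 0.20 for IFNAR1 and -0.48 to 0.50 for JAK1, JAK1 between WT lines from -0.93 to 0.04, and, between KO lines, DDX58 from -0.60 to 0.43 and IFNAR1 from -0.15 to 0.11 (0.05 with limma-voom). The causes were not tested.

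Over all genes, 313 passed in Raji (818 with DESeq2, 3526 with limma-voom, 139 with WT libraries 3 and 4 summed, 81 with KO pairs summed) and 315 in Daudi (711 with DESeq2, 14 with only Daudi fitted, 69 and 934 without WT libraries 1 and 2, 100 and 37 without KO libraries 1 and 2). The difference of effects passed for 93 genes (496 with DESeq2, 229 with limma-voom, 6 without Daudi KO library 2). Between WT lines 2441 genes were higher in Raji and 2987 lower, against 1771 and 4065 with library size only, and between KO lines 2364 and 2712 against 1821 and 3452. Effectors passing in Daudi, 25, were 2 with only Daudi fitted. Depth limits IRF7 in Daudi, DHX58, ZBP1 and some interferon-stimulated effectors in Raji, and the interferon ligands. No paired analysis was possible because the labels give no replicate numbers shared by the groups.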
